A study of Mus musculus with 16 samples.

Results

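The genes of oxidative phosphorylation were followed in whole pancreatic tumours of mice given ADH-503, a small molecule that acts on the integrin CD11b. The set took every gene symbol on the array that begins with Nduf, Uqcr, Sdh, Cox4i, Cox5, Cox6, Cox7, Cox8 or Atp5, without pseudogenes marked -ps, and gave 95 of 27308 symbols. Each symbol was read from 1 probe, the one with the highest mean over the 16 arrays. Of the 95 genes, 93 were tested, and all 93 were well above background on each of the 16 arrays. The testis genes Cox7b2 and Cox8c were too dim to test.

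All tumours came from female C57BL/6 mice carrying an orthotopic pancreatic cancer, in which tumour cells grow within the pancreas. The groups were ADH-503 at 48 h (5 samples), ADH-503 at 10 days (5 samples) and vehicle (6 samples), and the series asks which genes change at these times. The compound is called LA1 in the sample titles, the vehicle samples carry no time, and the age of the animals and the tumour line are not given in the sources used here. Nothing in the labels states that each sample is a separate animal. The p-values set differences between group means against the spread among samples, and that spread may be partly technical.

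Oxidative phosphorylation is the last stage of respiration in the mitochondrion. Complexes I and II take electrons from NADH and succinate, ubiquinone hands them to complex III, cytochrome c carries them on to complex IV, and oxygen is reduced there to water. Complexes I, III and IV pump protons as electrons pass, and ATP synthase lets the protons back to drive the making of ATP. A few core subunits are encoded in mitochondrial DNA, while all the others, and the factors that assemble them, are encoded in the nucleus and imported.

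The arrays were hybridised on 2 slides that the groups did not fill evenly. Slide 1 held 48 h replicates 1 to 4, 10 days replicates 1 to 3 and vehicle replicate 1, and slide 2 held 48 h replicate 5, 10 days replicates 4 and 5 and vehicle replicates 2 to 6. Between 74.9% and 81.2% of probes were well above background on an array. Markers of tumour and duct epithelium such as Krt19 and Epcam were measured on the arrays (12 of 12 listed genes tested), as were digestive enzymes of acinar cells (26 of 26). In whole tumour RNA, fewer cells of a type and less RNA per cell cannot be told apart. All values below are log2 signals relative to the 75th percentile of the array, and differences are log2 fold changes from limma.

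No gene of the set passed the test at either time. At 48 h against vehicle 0 of 93 genes had an adjusted p under 0.05 in limma, where 0% of all 30996 features tested did, and 0 of 93 had an unadjusted p under 0.05, against 2.55% of all features. At 10 days against vehicle the counts were again 0 and 0 of 93, against 0% and 3.54% of all features. Between 10 days and 48 h they were 0 and 0 of 93, against 0% and 3.5% of all features. The smallest unadjusted p values among the genes were 0.117 for Ndufaf6 at 48 h, 0.0524 for Atp5s at 10 days and 0.0552 for Uqcrq at 10 days against 48 h, and no adjusted p was below 0.9999. When slide was a block in limma, unadjusted p was under 0.05 for 4 of 93 genes at 48 h (Ndufab1, Ndufaf1, Ndufaf4 and Sdhaf2, with 3.2% of all features), 1 at 10 days (Atp5s, with 3.97%) and 3 between the times (Atp5a1, Ndufaf4 and Uqcrq, with 3.55%), while adjusted p was under 0.05 for 0 of 93. For 0 of 93 genes did the treated and vehicle arrays separate without overlap at 48 h, where 0.071% of all features lay wholly above vehicle and 0.071% wholly below it, or at 10 days, where 0.116% and 0.0936% did.

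The log2 fold changes were small and of mostly 1 sign at each time. At 48 h 74 genes had a mean above vehicle and 19 below it (46.7% of all features were above), with a median log2 fold change of 0.03 against -0.01 over all features. At 10 days 23 were above and 70 below vehicle (48% of all features were above), with a median of -0.05 against -0.01. At 10 days against 48 h 16 were above and 77 below (51.2% of all features were above), with a median of -0.07 against 0.01. A list of 12 housekeeping genes, among them Sdha, had 11 of 12 above vehicle at 48 h, 5 of 12 at 10 days and 2 of 12 above 48 h at 10 days, with medians of 0.05, -0.01 and -0.06. Both treated groups were set against the same 6 vehicle arrays, so these counts share their data. With slide as a block the genes above were 90 of 93 at 48 h, 59 at 10 days and 12 between the times. Within slide 1, which holds 1 vehicle array, they were 40, 14 and 9, and within slide 2, which holds 1 array of 48 h, they were 80, 81 and 48, so the 10-day count turned from mostly below vehicle on slide 1 to mostly above it on slide 2. In the authors' deposited quantile-normalized table they were 56, 26 and 26, and after centring each array on its median 85, 27 and 8. Single arrays moved the counts too. The 48 h count was 34 of 93 without vehicle replicate 4 and 45 without 48 h replicate 3. The 10-day count was 48 of 93 without 10 days replicate 1, 15 without vehicle replicate 4 and 14 without 10 days replicate 4. The count between the times was 33 without 10 days replicate 1, 10 without 48 h replicate 4 and 9 without 10 days replicate 5.

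**Figure D1:**
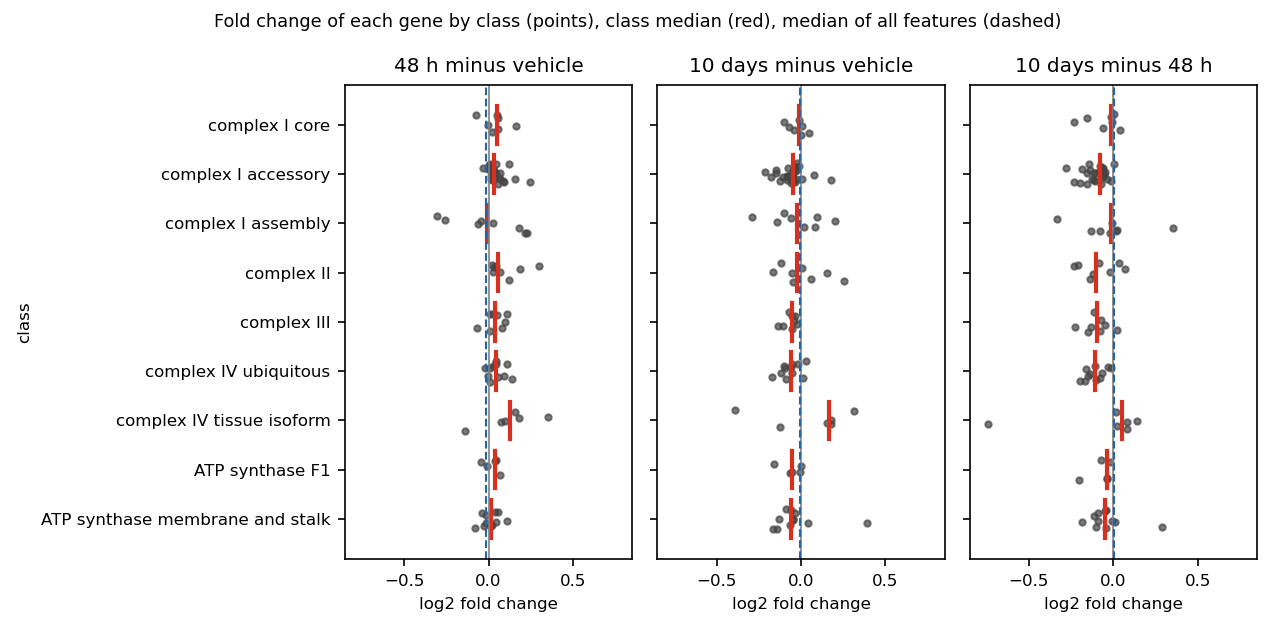
Log2 fold change of each tested gene (grey points) in 9 classes, for 48 h minus vehicle, 10 days minus vehicle and 10 days minus 48 h, with the class median in red and the median of all features as a dashed blue line. The class medians lie between -0.11 and 0.17, and the points farthest from 0 are Ndufa4l2 at 48 h and between the times and Atp5s at 10 days.

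The genes were high or low together from array to array. Each array was described by how many of the 93 genes lay above their own median over the 16 arrays. The counts were 56, 15, 76, 27 and 77 on the 48 h arrays in order of replicate. They were 13, 13, 15, 70 and 79 on the 10-day arrays. On the vehicle arrays the lowest count was 6, on replicate 4, the median lay between 54 and 56, and the highest was 74, on replicate 5. Over all features the same share was 38.7% to 63.6% on every array, so the counts, 6 to 79 of 93 (6.45% to 84.9%), spread more widely than that share. Such counts show direction and not size. The SD over the 16 arrays had a median of 0.19 for the set and 0.32 over all features. The 3 groups overlapped throughout, and the 10-day arrays fell into those on slide 1 (13 to 15 genes) and those on slide 2 (70 and 79 genes). The same counts ran from 6 to 79 with normexp background correction, from 16 to 80 in the authors' deposited quantile-normalized table and from 4 to 88 after centring on the median.

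**Figure D2:**
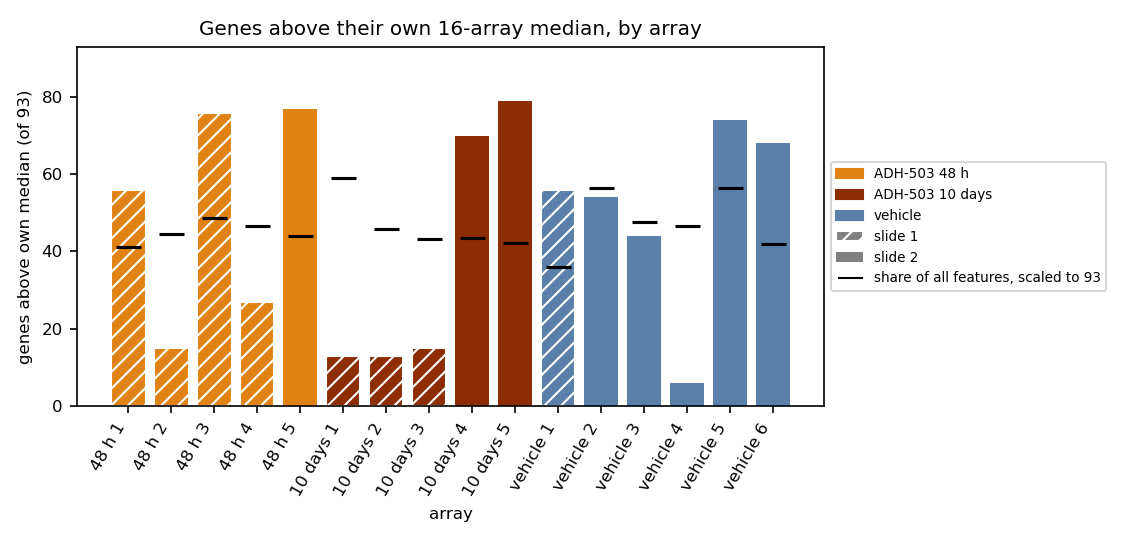
Number of the 93 genes above their own 16-array median on each array, for ADH-503 48 h, ADH-503 10 days and vehicle, hatched on slide 1 and plain on slide 2, with the share of all features scaled to 93 as black ticks. The bars run from 6 to 79 while the ticks stay near the middle, and the 3 hatched 10-day bars stand at 13 to 15.

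The mean over the 93 genes put the same arrays at the ends. It was 1.91, 1.78, 2.05, 1.83 and 2.02 at 48 h, 1.66, 1.74, 1.75, 1.98 and 2.06 at 10 days, and 1.63, 1.9 and 1.98 at the lowest, median and highest vehicle array. Group means were 1.92 ± 0.11 (SD, n = 5) at 48 h, 1.84 ± 0.17 (SD, n = 5) at 10 days and 1.87 ± 0.13 (SD, n = 6) in vehicle, closer together than the arrays of any group. In a model with slide as a term, 87 of 93 genes had a higher estimate on slide 2 than on slide 1, with a median difference of 0.14 (over all features 52.1% were higher and the median was 0.01). Of these slide differences 0 of 93 had an adjusted p under 0.05 in limma and 6 of 93 (6.45%) an unadjusted p under 0.05, against 5.21% of all features.

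Other measures varied beside this pattern, and their part in it was not tested. The arrays with the lowest means, vehicle replicate 4 and 10 days replicate 1, had 80.3% and 81.2% of probes above background, and the array with the highest, 10 days replicate 5, had 74.9%, but vehicle replicate 2 had 80.4% and 54 genes above their median. The 12 housekeeping genes had their lowest means on vehicle replicate 4 (3.22) and 10 days replicates 2, 1 and 3 (3.26, 3.29 and 3.30) and their highest on 10 days replicate 5 (3.55) and 48 h replicate 3 (3.53). Acinar markers, 25 of 26 of which were above vehicle at 48 h and 7 of 26 at 10 days, had list means of 1.36 to 2.07 at 48 h, -0.34 to 2.0 at 10 days and -0.21 to 1.55 in vehicle. At 10 days against 48 h 1 of 26 was above, with a median of -1.14. By unadjusted p under 0.05 in limma 12 of 26 were higher at 48 h than in vehicle, against 0.865% of all features. At 10 days 22 of 26 were lower than at 48 h, against 1.17% of all features, and 0 passed after adjustment in either comparison. Erythroid markers, 0 of 11 of which were above vehicle at either time, had list means of -3.86 to -1.40 at 48 h, -3.78 to -2.28 at 10 days and -2.59 to 0.53 in vehicle. Of these 4 and 6 of 11 were lower than in vehicle at 48 h and 10 days by unadjusted p, and 0 by adjusted p. Over all features 1.69% and 1.78% were lower by unadjusted p. The 12 epithelial markers had means of -1.34 to 1.33 at 48 h, -1.08 to 0.66 at 10 days and -0.30 to 1.45 in vehicle. Of these 7 of 12 were above vehicle at 48 h (median 0.04) and 0 of 12 at 10 days (median -0.50). At 10 days against 48 h 1 of 12 was above (median -0.58). In each comparison 0 of 12 had an unadjusted p under 0.05 in limma, against 2.55%, 3.54% and 3.5% of all features.

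**Figure D3:**
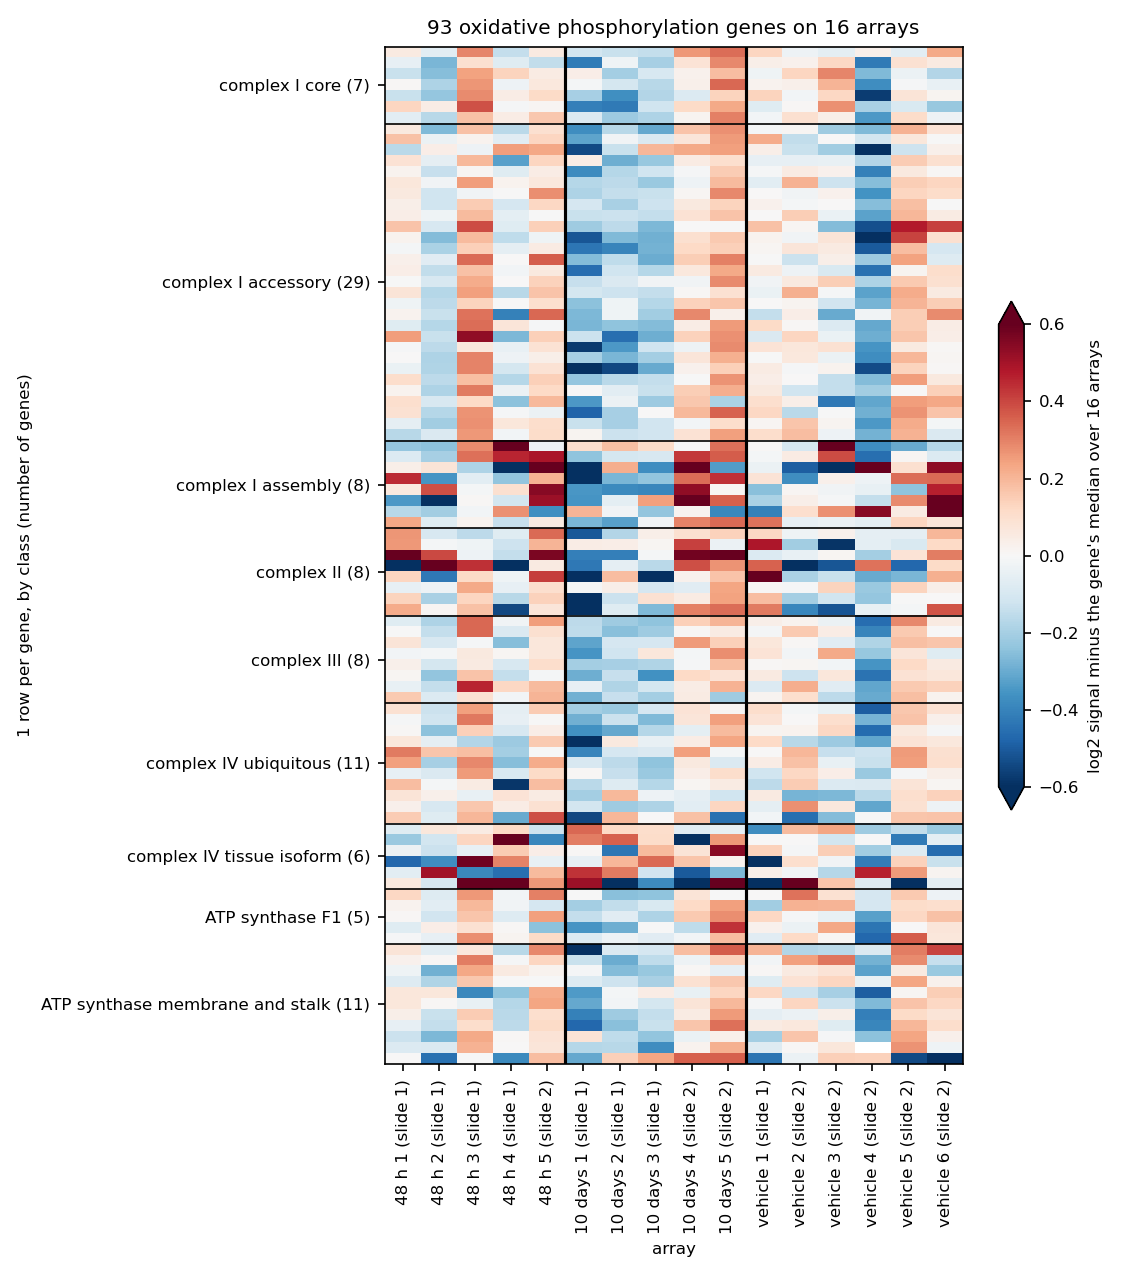
Each of the 93 genes (rows, by class) on each array (columns, 48 h then 10 days then vehicle, with the slide), coloured by its log2 signal minus its own median over 16 arrays, from blue (lower) to red (higher). Vehicle 4, 10 days 1 to 3 and 48 h 2 are blue and 10 days 5, 48 h 3 and 48 h 5 are red through most subunits of complexes I, III, IV and ATP synthase. The rows of the 6 tissue isoforms of complex IV differ from each other on the same arrays.

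The core of complex I, the NADH dehydrogenase that is the entry point of the chain, was represented by its 7 nuclear-encoded catalytic subunits. Of these 5 of 7 were above vehicle at 48 h and 3 of 7 at 10 days, with medians of 0.05 and -0.01. Ndufv1, which binds NADH and the flavin, had the lowest p of the class at 48 h and the widest spread. It measured 2.55, 2.46, 2.80, 2.41 and 2.43 at 48 h, 2.01, 1.99, 2.30, 2.53 and 2.65 at 10 days, and 2.19, 2.33 and 2.69 at the lowest, median and highest vehicle array (probe at chr19:4007508-4007567 on build mm9). All 5 of the 48 h arrays lay above the vehicle median, and the first 3 of the 10-day arrays lay below it. Its log2 fold change was 0.16 ± 0.14 (SE) at 48 h, -0.07 ± 0.14 at 10 days and -0.23 ± 0.15 between the times, where it was -0.45 within slide 1 and 0.16 within slide 2. A further Ndufv1 probe gave -0.003 at 48 h and -0.19 at 10 days against vehicle.

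Ndufs8, an iron-sulphur subunit on the path of electrons to ubiquinone, measured 2.07, 1.98, 2.49, 2.25 and 2.32 at 48 h, 2.01, 1.84, 2.03, 2.12 and 2.34 at 10 days, and 1.64, 2.26 and 2.34 at the lowest, median and highest vehicle array. Vehicle replicate 4 alone lay below every treated array. Its log2 fold change at 10 days was -0.10 ± 0.14 (SE), and -0.38 within slide 1 against 0.10 within slide 2. Of the further core subunits, Ndufs1, Ndufs3, Ndufs7 and Ndufv2 had log2 fold changes of -0.01 to 0.05 at both times. Other probes gave 0.45 and 0.24 for Ndufs1 at 48 h and 10 days, -0.13 and -0.07 for Ndufs3, and 0.20 and -0.10 for Ndufv2.

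The accessory subunits surround that core and are needed for its assembly and stability. At 48 h 27 of 29 were above vehicle (median 0.03), at 10 days 3 of 29 (median -0.05), and at 10 days against 48 h 1 of 29 (median -0.08). Ndufa11, a membrane-arm subunit, had the lowest p of the class at 48 h. It measured 1.14, 1.34, 1.27, 1.56 and 1.54 at 48 h, 0.77, 1.17, 1.51, 1.53 and 1.55 at 10 days, and 0.64, 1.18 and 1.34 at the lowest, median and highest vehicle array. Both treated groups reached above all vehicle arrays and overlapped them, and the log2 fold changes were 0.24 ± 0.16 (SE) at 48 h and 0.18 ± 0.16 (SE) at 10 days. Without vehicle replicate 4 they were 0.14 and 0.08.

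Ndufb9, an LYR-motif subunit of the membrane arm, had the lowest p of the class at 10 days. It measured 1.83, 1.69, 2.17, 1.76 and 1.95 at 48 h, 1.21, 1.32, 1.56, 1.89 and 2.01 at 10 days, and 1.33, 1.88 and 2.0 at the lowest, median and highest vehicle array. The first 3 of the 10-day arrays lay below every 48 h array and the other 2 near the top of the vehicle range. The difference between 10 days and vehicle was -0.21 ± 0.16 (SE), with -0.55 within slide 1 and 0.16 within slide 2. Ndufa7, the accessory subunit with the widest spread, averaged 0.94 ± 0.20 at 48 h and 0.70 ± 0.12 at 10 days (SD, n = 5 each) and 0.88 ± 0.39 in vehicle (SD, n = 6). A further Ndufa7 probe gave -0.23 at 48 h and -0.18 at 10 days against vehicle. The other 26 accessory genes include the acyl carrier protein Ndufab1, which was higher by 0.16 at 48 h, and Ndufc2, which was higher by 0.09 at 48 h and 0.08 at 10 days. A further Ndufab1 probe had the opposite sign at 48 h, at -0.27.

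The assembly factors of complex I put its modules together and are absent from the finished enzyme. Several of them varied more over the arrays than the accessory subunits did. As a class they were also dimmer, with a mean in vehicle of -0.90 against 2.38 for the accessory subunits. Of 8 factors 4 were above vehicle at each time. Ndufaf6, a factor of early assembly, had the lowest p at 48 h of all 93 genes. It measured -2.43, -2.47, -2.28, -1.99 and -2.63 at 48 h, -2.06, -2.28, -2.50, -2.24 and -2.65 at 10 days, and -2.66, -2.07 and -1.59 at the lowest, median and highest vehicle array. All 10 treated arrays lay within the vehicle range, mostly in its lower part, and the log2 fold changes were -0.30 ± 0.18 (SE) and -0.29 ± 0.18 (SE). Within slide 1, whose only control is the lowest vehicle array, the differences were 0.37 and 0.39, and within slide 2 they were -0.70 and -0.51. Of its other 2 probes, 1 had the opposite sign at both times, at 0.37 and 0.04.

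Ndufaf4, which works with Ndufaf3 at an early step, measured -2.10, -1.78, -2.17, -2.06 and -1.62 at 48 h, -2.51, -2.55, -2.56, -1.63 and -2.15 at 10 days, and -2.41, -2.20 and -1.69 at the lowest, median and highest vehicle array. The 48 h arrays lay at or above the vehicle median, and 3 of the 10-day arrays lay below every vehicle array. Its difference between 10 days and 48 h was -0.33 ± 0.19 (SE), negative within slide 1 (-0.51) and within slide 2 (-0.28). Ndufaf1, part of the intermediate that builds the membrane arm, had 0.22 ± 0.18 (SE) at 48 h, and 0.14 within slide 1 and 0.51 within slide 2. Ndufaf2, a late factor, had the widest spread of the class, from -3.72 to -1.74, with group means of -3.0 ± 0.55 and -3.01 ± 0.78 (SD, n = 5 each) at 48 h and 10 days and -3.02 ± 0.53 (SD, n = 6) in vehicle. Atp5sl, named Dmac2 in RefSeq and placed here because it serves complex I assembly and not ATP synthase, had 0.18 at 48 h and 0.20 at 10 days. A further Atp5sl probe had the opposite sign, at -0.12 and -0.01.

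Complex II, or succinate dehydrogenase, is the one complex shared with the citric acid cycle and has no subunit encoded in mitochondrial DNA. Its 4 subunits had log2 fold changes of 0.02 to 0.07 at 48 h and -0.12 to 0.00 at 10 days. Sdha, the flavoprotein that oxidises succinate, measured 2.81, 2.45, 2.39, 2.47 and 2.89 at 48 h, 2.04, 2.37, 2.58, 2.64 and 2.69 at 10 days, and 2.49, 2.55 and 2.75 at the lowest, median and highest vehicle array. Its log2 fold changes were 0.02 ± 0.13 (SE) and -0.12 ± 0.13 (SE), and its 4 probes gave 10-day differences of -0.12, -0.79, 0.02 and -0.12. Sdhb, the iron-sulphur subunit, kept within 2.94 to 3.40 over all arrays and had the smallest spread of all 93 genes (SD 0.12, n = 16), with differences of 0.03 ± 0.10 (SE) and 0.00 ± 0.10 (SE).

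Sdhc and Sdhd anchor the enzyme in the membrane and carry its ubiquinone site. Sdhc measured 1.48, 1.15, 1.47, 1.18 and 1.48 at 48 h, 0.52, 1.22, 1.44, 1.39 and 1.59 at 10 days, and 1.11, 1.29 and 1.53 at the lowest, median and highest vehicle array, so that 10 days replicate 1 alone stood below the others. Sdhd measured 0.27, 0.06, 0.23, -0.50 and 0.12 at 48 h, -0.73, -0.02, -0.21, 0.35 and 0.39 at 10 days, and -0.47, 0.02 and 0.43 at the lowest, median and highest vehicle array. The groups overlapped for both genes. Their log2 fold changes were 0.07 ± 0.17 and 0.03 ± 0.22 (SE) at 48 h, and -0.05 ± 0.17 and -0.05 ± 0.22 (SE) at 10 days.

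The 4 assembly factors of complex II were all above vehicle at 48 h and 3 of 4 at 10 days. Sdhaf2, which helps insert the flavin into Sdha, measured -0.37, -0.73, -1.16, -1.27 and -0.56 at 48 h, -1.54, -1.54, -1.14, -0.55 and -0.51 at 10 days, and -1.33, -1.15 and -0.82 at the lowest, median and highest vehicle array. Treated arrays lay on both sides of the narrow vehicle range at 10 days, and 3 of 5 above it at 48 h. The log2 fold changes were 0.30 ± 0.22 (SE) and 0.06 ± 0.22 (SE). Its other 2 probes had the opposite sign at both times, with -0.09 and -0.76 at 48 h and -0.39 and -1.06 at 10 days. Sdhaf1, which supports the iron-sulphur clusters of Sdhb, had 0.12 ± 0.16 (SE) at 48 h and 0.15 ± 0.16 (SE) at 10 days, and -0.46 and -0.45 within slide 1. Sdhaf3 had the widest spread of the class (SD 0.59 over 16 arrays) and differences of 0.19 ± 0.36 (SE) and 0.25 ± 0.36 (SE).

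Complex III, the cytochrome bc1 complex, passes electrons from ubiquinol to cytochrome c. Of its 8 genes 7 were above vehicle at 48 h (median 0.04) and 0 of 8 at 10 days (median -0.05, from -0.13 to -0.02), and the mean of the 8 ran from 2.91 to 3.23 on the 48 h arrays, 2.81 to 3.15 on the 10-day arrays and 2.70 to 3.19 on the vehicle arrays. Uqcrq, a small subunit beside cytochrome b, came closest to a difference between the times. It measured 3.71, 3.47, 3.65, 3.54 and 3.76 at 48 h, 3.27, 3.41, 3.35, 3.6 and 3.34 at 10 days, and 3.25, 3.57 and 3.74 at the lowest, median and highest vehicle array (probe at chr11:53242471-53242530 on mm9). Of the 10-day arrays 4 of 5 lay below every 48 h array, and both groups lay close to or within the vehicle range. The difference between 10 days and 48 h was -0.23 ± 0.11 (SE; limma, adjusted p = 0.9999), and it was -0.25 within slide 1 and -0.28 within slide 2. Against vehicle Uqcrq had 0.09 ± 0.11 (SE) at 48 h and -0.13 ± 0.11 (SE) at 10 days.

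Uqcr10, a small membrane-spanning subunit, had the widest spread in complex III, with means of 3.39 ± 0.23 and 3.27 ± 0.21 (SD, n = 5 each) at 48 h and 10 days and 3.31 ± 0.24 (SD, n = 6) in vehicle. The Rieske iron-sulphur protein itself, Uqcrfs1, had 0.01 and -0.07, and the core proteins Uqcrc1 and Uqcrc2 had 0.01 and 0.03 at 48 h and -0.04 and -0.05 at 10 days.

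Complex IV, cytochrome c oxidase, hands the electrons to oxygen, and its nuclear-encoded subunits tune the catalytic core that mitochondrial DNA encodes. Of the 11 widely expressed genes, Ndufa4 counted among them, 9 were above vehicle at 48 h (median 0.04), 2 at 10 days (median -0.06) and 0 at 10 days against 48 h (median -0.11). Cox4i1, the largest nuclear-encoded subunit, measured 3.68, 3.46, 3.83, 3.53 and 3.74 at 48 h, 3.38, 3.37, 3.49, 3.67 and 3.6 at 10 days, and 3.09, 3.63 and 3.75 at the lowest, median and highest vehicle array. The groups overlapped, and its log2 fold changes were 0.09 ± 0.12 (SE) and -0.05 ± 0.12 (SE).

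Cox7a2, a small subunit at the edge of the enzyme, had the lowest p of these genes at 10 days. It measured 2.97, 2.52, 3.01, 2.46 and 2.94 at 48 h, 2.62, 2.56, 2.48, 2.77 and 2.63 at 10 days, and 2.58, 2.79 and 2.97 at the lowest, median and highest vehicle array. All 5 of the 10-day arrays lay below the vehicle median, and the difference was -0.17 ± 0.12 (SE), with -0.21 within slide 1 and -0.09 within slide 2. Cox7c had the lowest p at 48 h, at 0.11 ± 0.11 (SE), and Cox6a1, Cox6b1, Cox7a2l, Cox7b and Cox8a lay between -0.02 and 0.05 at 48 h and between -0.10 and 0.01 at 10 days. Ndufa4, once counted with complex I and now with complex IV, had the widest spread of the class and differences of 0.14 ± 0.17 (SE) and -0.06 ± 0.17 (SE).

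Some complex IV subunits have another form that replaces the common one in certain tissues, and 6 such isoforms were tested. On 10 days replicates 1, 2 and 3, where 13, 13 and 15 of all 93 genes lay above their own median, 5, 4 and 4 of the 6 isoforms did. On vehicle replicate 4, where 6 of 93 did, 1 of 6 did, and on 48 h replicate 2, where 15 of 93 did, 2 of 6 did. On 48 h replicates 3 and 5 and 10 days replicate 5, where 76, 77 and 79 of 93 did, 4, 3 and 4 of 6 did. Of the isoforms 5 of 6 were above vehicle at 48 h (median 0.13) and 4 of 6 at 10 days (median 0.17). None had an adjusted or unadjusted p under 0.05 in limma, where 2.55% and 3.54% of all features had an unadjusted one at these times.

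Cox7a1, the heart and skeletal muscle form of Cox7a2, had the largest positive 10-day difference among them. It measured -0.63, -0.53, 0.42, 0.14 and -0.20 at 48 h, -0.21, 0.04, 0.18, 0.01 and -0.14 at 10 days, and -0.92, -0.24 and -0.02 at the lowest, median and highest vehicle array. Of the 10-day arrays 3 of 5 lay above every vehicle array, and the log2 fold changes were 0.18 ± 0.20 (SE) and 0.32 ± 0.20 (SE). The 10-day difference was 0.92 within slide 1, against the single and lowest vehicle array, and 0.16 within slide 2.

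Cox4i2, the form of Cox4i1 found in lung and in vessel walls, measured 0.70, 0.84, 0.82, 0.89 and 0.64 at 48 h, 1.11, 0.89, 0.87, 0.70 and 0.72 at 10 days, and 0.39, 0.59 and 1.0 at the lowest, median and highest vehicle array. Every treated array lay above the vehicle median and, but for 10 days replicate 1, within the vehicle range. The log2 fold changes were 0.10 ± 0.12 (SE) and 0.18 ± 0.12 (SE), and at 10 days 0.56 within slide 1 and -0.03 within slide 2.

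Cox6a2 and Cox8b are the other muscle forms. Cox6a2 measured -1.32, -1.21, -0.97, -0.22 and -1.49 at 48 h, -0.79, -0.74, -0.99, -1.74 and -0.84 at 10 days, and -1.52, -1.13 and -1.09 at the lowest, median and highest vehicle array, with differences of 0.16 ± 0.22 (SE) and 0.18 ± 0.22 (SE). Of the 10-day arrays 4 of 5 lay above every vehicle array and replicate 4 below all of them. Cox8b had -0.14 ± 0.20 (SE) and -0.12 ± 0.20 (SE). Muscle markers (17 of 20 tested, 5 of 17 above vehicle at 48 h and 12 of 17 at 10 days) had list means of -2.11 to -1.87 at 48 h, -2.10 to -1.65 at 10 days and -2.26 to -1.75 in vehicle. Pericyte and smooth muscle markers (10 of 10 tested, 3 and 4 above vehicle) had means of -2.05 to -1.63, -2.38 to -1.66 and -2.35 to -1.21 in the same order. Their part in the isoform values was not tested.

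Of the testis forms, Cox6b2 was measured on every array, at 0.16 to 0.44 at 48 h, -0.14 to 0.84 at 10 days and -0.17 to 0.44 in vehicle, with differences of 0.07 ± 0.15 (SE) and 0.16 ± 0.15 (SE). Cox7b2 was well above background on 0 of 16 arrays. Cox8c was well above background on 48 h replicate 5 (-5.64) and 10 days replicate 5 (-3.45), both on slide 2, and not on the 6 vehicle arrays, and no fold is given.

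Ndufa4l2, the form of Ndufa4 known to be induced by low oxygen, varied more than any other gene of the set, with an SD of 0.82 and a range of 3.08 over the 16 arrays. It measured -2.53, -2.69, -1.91, -1.22 and -2.32 at 48 h, -2.07, -3.86, -2.96, -3.64 and -1.84 at 10 days, and -3.21, -2.65 and -0.78 at the lowest, median and highest vehicle array. The highest value of all belonged to vehicle replicate 2, and the groups overlapped. The log2 fold changes were 0.35 ± 0.46 (SE) at 48 h, -0.39 ± 0.46 (SE) at 10 days and -0.74 ± 0.49 (SE) between the times. Without vehicle replicate 2 the 48 h value was 0.69 and the 10-day value -0.05, and without 48 h replicate 4 the 48 h value was 0.12. With any 1 array left out the values ran from 0.12 to 0.69 at 48 h, -0.65 to -0.05 at 10 days and -1.0 to -0.50 between the times. Of 14 tested genes of glycolysis and the hypoxia response, 11 were above vehicle at 48 h and 6 at 10 days. Against vehicle 0 of 14 had an adjusted or unadjusted p under 0.05 in limma. By unadjusted p the shares of all features were 2.55% at 48 h and 3.54% at 10 days.

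**Figure D4:**
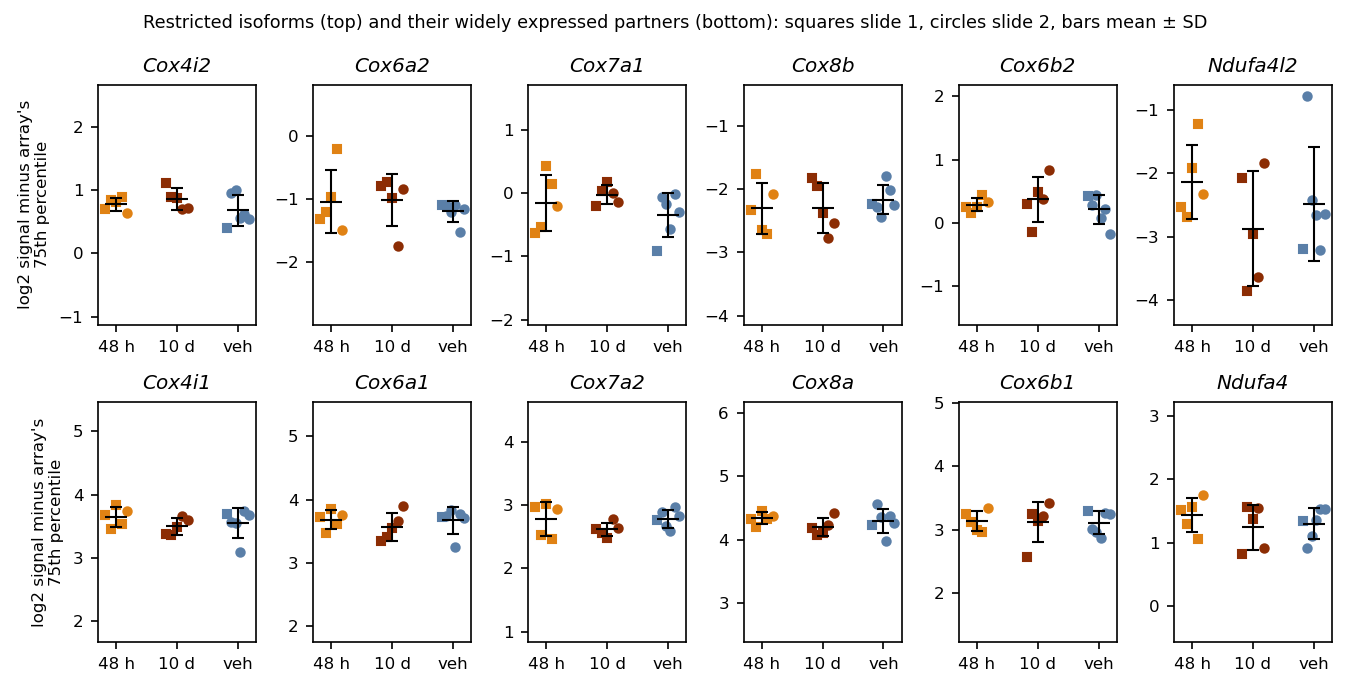
Log2 signal of 6 restricted isoforms (top) and their widely expressed partners (bottom) at 48 h, at 10 days and in vehicle, with squares for slide 1, circles for slide 2 and bars for mean ± SD (n = 5, 5 and 6). All panels span the same number of log2 units, and Ndufa4l2 and Cox6a2 are spread more widely than their partners Ndufa4 and Cox6a1.

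ATP synthase has a catalytic head, F1, and a membrane rotor and stalk. Of the 5 genes of the head 3 were above vehicle at 48 h (median 0.04) and 1 at 10 days (median -0.05). Atp5a1, the alpha subunit, measured 4.28, 4.07, 4.41, 4.14 and 4.46 at 48 h, 4.15, 3.90, 3.91, 4.23 and 4.15 at 10 days, and 4.05, 4.2 and 4.48 at the lowest, median and highest vehicle array. Of the 10-day arrays 4 of 5 lay below the vehicle median, with differences of -0.16 ± 0.11 (SE) against vehicle and -0.20 ± 0.12 (SE) against 48 h. The difference against 48 h was negative within slide 1 (-0.24) and within slide 2 (-0.27), and a further probe of Atp5a1 gave -0.25 at 10 days against vehicle. Atp5b, the catalytic beta subunit, had -0.04 and -0.07. Atp5d, the delta subunit, averaged 2.93 ± 0.13 at 48 h and 2.89 ± 0.31 at 10 days (SD, n = 5 each) and 2.94 ± 0.22 in vehicle (SD, n = 6), while its other probe gave -0.76 at 48 h and 0.57 at 10 days. Atp5e, the epsilon subunit, had 0.07 ± 0.13 (SE) and -0.01 ± 0.13 (SE).

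Of the 11 genes of the membrane part and stalk 6 were above vehicle at 48 h (median 0.02) and 2 at 10 days (median -0.06). The largest positive difference of the set at 10 days belonged to Atp5s, which encodes factor B, a protein linked to the synthase and named Dmac2l in RefSeq. It measured -2.78, -3.23, -2.79, -3.16 and -2.60 at 48 h, -3.09, -2.64, -2.55, -2.42 and -2.42 at 10 days, and -3.47, -3.02 and -2.64 at the lowest, median and highest vehicle array (probe at chr12:70842700-70842759 on mm9). Of the 10-day arrays 3 of 5 lay above every vehicle array and 10 days replicate 1 lay among the lower vehicle arrays. The log2 fold change was 0.39 ± 0.19 (SE; limma, adjusted p = 0.999977), and it was 0.53 when slide was a block. Within slide 1 it was 0.46 and within slide 2 it was 0.55. Atp5g1, Atp5g2 and Atp5g3 encode the same rotor-ring protein c and differ in their import sequences. They had 0.02, 0.06 and -0.08 at 48 h and -0.17, -0.05 and -0.09 at 10 days, and a further Atp5g3 probe gave -0.13 and -0.54.

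The probe chosen for a gene mattered for the sign of such small differences. The 95 genes had 149 probes, and 41 genes had more than 1. Of 50 further probes bright enough to test, 29 had the opposite sign to the chosen probe at 48 h and 20 at 10 days.

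The subunits encoded in mitochondrial DNA were read beside the nuclear ones. Of 13 such genes 11 were on the array under their symbols. Above vehicle were 9 of 11 at 48 h and 9 of 11 at 10 days, with medians of 0.05 and 0.03. An adjusted or unadjusted p under 0.05 in limma was found for 0 of 11, against 2.55% and 3.54% of all features by unadjusted p. CYTB, the cytochrome b of complex III, measured 3.97, 4.0, 3.85, 3.66 and 3.79 at 48 h, 4.19, 3.90, 3.84, 3.40 and 3.90 at 10 days, and 3.51 and 3.85 at the lowest and highest vehicle array, with differences of 0.15 ± 0.13 (SE) at both times. ATP8, a subunit of the membrane part of ATP synthase, and ND1, a core subunit of complex I, had 0.15 ± 0.17 (SE) and 0.10 ± 0.13 (SE) at 48 h and 0.03 ± 0.17 (SE) and 0.10 ± 0.13 (SE) at 10 days.

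The mean over the 11 mitochondrially encoded genes was 4.35, 4.32, 4.14, 4.02 and 4.38 at 48 h, 4.46, 4.27, 4.22, 3.93 and 4.25 at 10 days, and 4.02, 4.13 and 4.52 at the lowest, median and highest vehicle array. Its order of arrays differed from that of the nuclear genes: 10 days replicate 1, among the lowest for the nuclear genes, was the highest treated array here, and 10 days replicate 4, high for the nuclear genes, was the lowest of all 16.

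**Figure D5:**
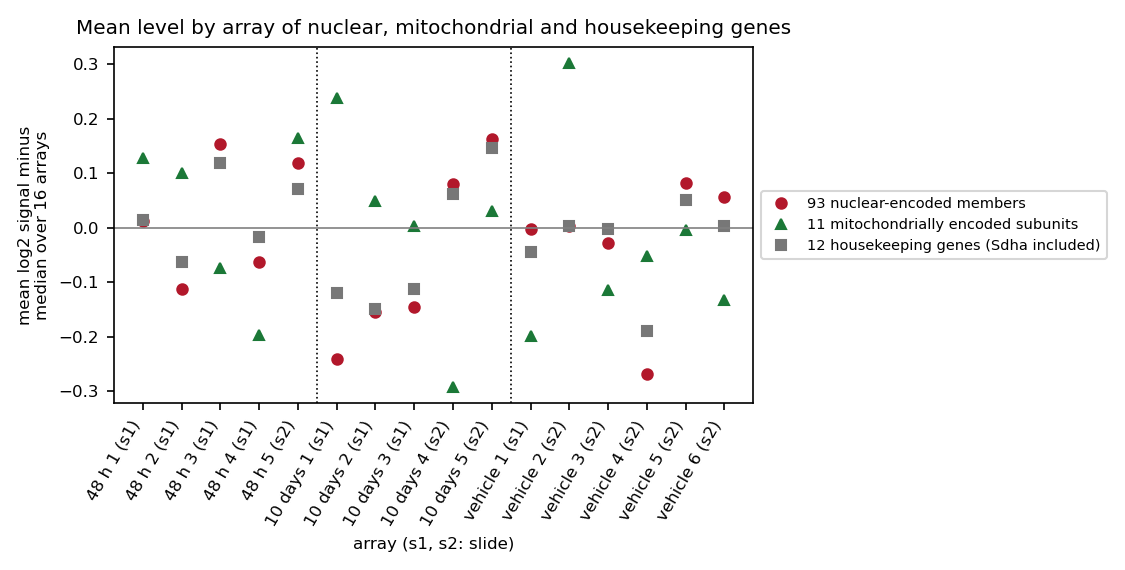
Mean log2 signal on each array of the 93 nuclear-encoded genes (red circles), 11 mitochondrially encoded subunits (green triangles) and 12 housekeeping genes (grey squares). Each mean is drawn minus its own median over the 16 arrays, with s1 and s2 for the slides. Circles and squares lie near each other on most arrays, while triangles lie far from the circles on 10 days 1 and 10 days 4.

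Genes that feed or regulate the chain were counted from further lists, in each of which 0 genes had an adjusted p under 0.05 in limma. Of 17 genes of the citric acid cycle and pyruvate dehydrogenase 10 were above vehicle at 48 h and 2 at 10 days. At 10 days against 48 h 0 of 17 were above (median -0.09). In each comparison 0 of 17 had an unadjusted p under 0.05 in limma, against 2.55%, 3.54% and 3.5% of all features. Suclg2, a subunit of succinyl-CoA ligase, had -0.01 ± 0.21 (SE) at 48 h and -0.40 ± 0.21 (SE) at 10 days, and Idh3b and Idh3g, subunits of the NAD-dependent isocitrate dehydrogenase, had 0.05 and 0.15 at 48 h and -0.21 and 0.03 at 10 days. Pdha1, the alpha subunit of pyruvate dehydrogenase, had 0.16 and -0.02.

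A further list held electron carriers, the ATPase inhibitor Atpif1 and the small ATP synthase proteins Usmg5 and 2010107E04Rik. Of its 8 tested genes 5 were above vehicle at 48 h and 4 at 10 days, and 0 of 8 were above 48 h at 10 days. Cyc1, the cytochrome c1 of complex III, measured 2.37, 2.10, 2.55, 2.30 and 2.39 at 48 h, 2.13, 1.96, 2.11, 2.40 and 2.17 at 10 days, and a mean of 2.37 ± 0.16 (SD, n = 6) in vehicle. Its difference at 10 days was -0.22 ± 0.11 (SE). Etfb and Etfdh, which carry electrons from fat oxidation to ubiquinone, had -0.23 and 0.12 at 10 days, and 0.00 and 0.26 at 48 h. Atpif1, the inhibitor that binds ATP synthase, had 0.10 at 48 h and 0.04 at 10 days.

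Of 32 further assembly factors 19 were above vehicle at 48 h and 15 at 10 days, with 1 of 32 at an unadjusted p under 0.05 at each time (2.55% and 3.54% of all features). Lyrm7, a chaperone of the Rieske protein of complex III, measured -2.72, -2.64, -2.83, -2.30 and -2.87 at 48 h, -2.42, -2.10, -2.21, -2.27 and -2.49 at 10 days, and a mean of -2.82 ± 0.29 (SD, n = 6) in vehicle. The 10-day difference was 0.52 ± 0.15 (SE), with an unadjusted p of 0.00324 and an adjusted p of 0.999977 in limma, and the lowest 10-day array lay just under the highest vehicle array (-2.47). Coa6, a copper-binding factor of complex IV, had 0.54 ± 0.23 (SE) at 48 h with an unadjusted p of 0.0343 in limma, and 0.29 ± 0.23 (SE) at 10 days. Uqcc1 of complex III had 0.24 and -0.10, and Foxred1 of complex I had 0.10 and 0.22.

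Of 14 regulators of mitochondrial biogenesis 11 were above vehicle at 48 h and 10 at 10 days. At these times 0 of 14 had an unadjusted p under 0.05 in limma, against 2.55% and 3.54% of all features. The coactivator Ppargc1a ran from -4.26 to -2.36 at 48 h, from -5.79 to -3.20 at 10 days and from -6.26 to -2.16 in vehicle, where it was above background on 5 of 6 arrays, with differences of 0.62 ± 0.68 (SE) and -0.64 ± 0.68 (SE). Its relative Ppargc1b had 0.31 ± 0.23 (SE) and 0.41 ± 0.23 (SE), and Tfb1m, a mitochondrial rRNA methylase, had 0.29 and -0.19. The factors Nrf1 and Gabpa, which bind promoters of many of these genes, had -0.05 and 0.00 at 48 h and 0.03 and -0.12 at 10 days. Of 6 carriers and channels of the inner and outer membrane 4 were above vehicle at 48 h and 0 at 10 days. The phosphate carrier Slc25a3 had -0.04 at both times, and the porins Vdac1 and Vdac2 had 0.03 and 0.02 at 48 h and -0.10 and -0.08 at 10 days.

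The 95 genes of the set lie on 19 chromosomes, at most 11 of them on 1, and their promoters were compared by letters that the choice of genes did not use. RefSeq windows of 300 bases, 250 before and 50 after the start on GRCm38.p6, were found for 79 of the 95 genes and for 27025 genes in all. The motif of NRF1, GCGCA and GCGC with any base between them, was in a window of 26.6% of these genes against 5.19% of all genes. The motif of GABPA, CCGGAAG, was in 25.3% against 9.93%, and that of YY1, AAGATGGCG, in 10.1% against 1.64%, each searched on both strands, as were all motifs here. At least 1 of the 3 was found in 42 of 79 genes (53.2%), against 15.1% of all genes. The windows of the set are richer in G and C, with a median of 58.3% against 52.7%, and its part in these shares was not tested. The GC-rich SP1 motif GGGCGGG was in 36.7% against 27.9%, the E-box CACGTG in 8.86% against 8.09%, and TATAAA in 10.1% against 15.7%. The ESRRA motif TNAAGGTCA was in 3.8% against 1.43%, and the hypoxia response core TACGTG, which shares all but its first letter with the E-box, in 1.27% against 3.67%.

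By class, NRF1 or GABPA letters were found most often in complex II, with NRF1 in 4 and GABPA in 5 of 7 genes, and in the membrane part and stalk of ATP synthase, with 5 and 4 of 11. Of 27 accessory subunits of complex I 7 had the NRF1 motif and 4 that of YY1. Of the 4 tissue isoforms of complex IV with a window, 0 had any of the 3 and 2 had TATAAA. A match describes the letters of the window and not binding.

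The 250 bases before the start of 4 genes, from 4 complexes, are shown with the NRF1 and GABPA letters in capitals, 5′ to 3′ on the strand of the gene. Each of these genes was well above background on all arrays and differed by at most 0.10 from vehicle at either time. The windows are chr13:73328483-73328732 (minus strand) for Ndufs6, a zinc-binding subunit of complex I, chr9:50603850-50604099 (minus) for Sdhd, chr5:115348959-115349208 (minus) for Cox6a1, and chr11:115419920-115420169 (minus) for Atp5h, a stalk subunit of ATP synthase, all on GRCm38.p6.
Ndufs6: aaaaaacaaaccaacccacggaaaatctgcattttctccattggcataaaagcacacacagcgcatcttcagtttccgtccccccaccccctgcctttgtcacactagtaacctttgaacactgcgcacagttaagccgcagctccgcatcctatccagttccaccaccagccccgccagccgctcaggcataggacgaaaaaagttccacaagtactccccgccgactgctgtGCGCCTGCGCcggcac
Sdhd: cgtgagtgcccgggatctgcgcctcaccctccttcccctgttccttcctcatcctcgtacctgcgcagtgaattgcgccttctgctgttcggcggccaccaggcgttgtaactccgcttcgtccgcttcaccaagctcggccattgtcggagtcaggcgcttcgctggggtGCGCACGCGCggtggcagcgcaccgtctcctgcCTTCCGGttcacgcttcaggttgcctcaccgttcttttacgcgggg
Cox6a1: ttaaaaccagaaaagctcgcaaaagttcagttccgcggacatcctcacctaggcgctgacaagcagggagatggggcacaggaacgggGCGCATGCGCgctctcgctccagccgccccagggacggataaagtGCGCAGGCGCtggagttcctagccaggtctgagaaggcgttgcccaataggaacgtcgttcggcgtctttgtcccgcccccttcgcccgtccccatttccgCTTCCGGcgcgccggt
Atp5h: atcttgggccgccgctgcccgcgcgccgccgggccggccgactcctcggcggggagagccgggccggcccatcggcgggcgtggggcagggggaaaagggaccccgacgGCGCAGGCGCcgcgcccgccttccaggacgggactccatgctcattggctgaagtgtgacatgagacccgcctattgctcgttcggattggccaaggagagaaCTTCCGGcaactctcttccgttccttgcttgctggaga
Ndufs6 holds 1 NRF1 match close to its start, Sdhd 1 of NRF1 and 1 of GABPA, Cox6a1 2 of NRF1 and 1 of GABPA, and Atp5h 1 of each. Ndufs6 had log2 fold changes of 0.03 and -0.08 at 48 h and 10 days, and Atp5h had 0.04 at both times.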

How the data were processed

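RNA of 16 tumour samples was hybridised in 1 colour (Cy5) to Agilent mouse arrays. The submitters' processing notes name Agilent Feature Extraction 11.5.1.1 for the scanner files. The deposited processed signals are linear intensities from which the scanner software had taken off background, per the file headers, with probe positions on mm9. The authors also deposited log2 values of the same arrays, which are quantile-normalized (sorted columns differ by at most 0.0043), and these served as an alternative.

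From the scanner files, control and outlier spots were left out, spots of 1 probe were averaged, and log2 processed signal minus the 75th percentile of the array was used. Symbols stand as in the file, and RefSeq gave current names and promoters (GRCm38.p6). Each of 37554 features kept the probe with the highest mean, and 30996 were tested, being well above background on at least 5 of 16 arrays. The precision of each value is limited by the number of arrays. Groups came from the treatment and time labels, and replicate numbers only name arrays. The 3 groups were fitted in 1 model with limma 3.58.1 (R 4.3.3), using robust eBayes without an intensity trend and no covariates, with 2-sided p adjusted by Benjamini-Hochberg over all features and a threshold of 0.05. The test was checked on simulated data in which genes varied independently, slides did not differ and the planted changes were larger than the differences seen in this set. That check cannot tell how the test handles small differences of genes that vary together.

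Genes named were, per class, those with the lowest p at each time and the widest spread, all 4 Sdh subunits, each tissue isoform with its partner, the 5 lowest p per comparison, and 2 genes per further list and time. Genes added beside these were chosen after their values were seen. The members and all lists were chosen with earlier results of these data known. Motifs were searched with exact letters. Alternatives were the background correction, scaling, deposited table, probe filter, probe choice, intensity trend, slide, each array left out, and the samples vehicle replicate 2 and 48 h replicate 5, whose titles share an ID number.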

Additional observations from a re-analysis of the deposited data

Results flagged for a closer look

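A single array stood far from the others of its group for 17 of 144 sets of values examined. For a single independent set chance gives about 1 in 20, but these sets overlap, since class means stand beside their own genes, the genes vary together and some were named for their spread, so the 17 cannot be read against that share. Vehicle replicate 4 was low in 9 of them. It measured 0.64 for Ndufa11 against 1.1 to 1.34 on the other vehicle arrays, 1.33 for Ndufb9 against 1.86 to 2.0, and 1.64 for Ndufs8 against 2.19 to 2.34. It measured 3.09 for Cox4i1 against 3.55 to 3.75, and 3.26 for Cox6a1 against 3.71 to 3.84. Its mean was 2.28 over the core of complex I, against 2.57 to 2.73 on the other vehicle arrays. It was 2.70 over complex III, against 3.04 to 3.19, and 2.26 over the membrane part and stalk of ATP synthase, against 2.57 to 2.73. Over all 93 genes it was 1.63, against 1.87 to 1.98.

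Other vehicle arrays stood apart for 1 gene each. Replicate 6 was high for Ndufaf4 (-1.69, against -2.41 to -2.15), replicate 2 was high for Ndufa4l2 (-0.78, against -3.21 to -2.42), and replicate 5 was low for Cox6a2 (-1.52, against -1.21 to -1.09).

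Among the treated arrays, 48 h replicate 4 was low for Sdhd (-0.50, against 0.06 to 0.27) and for Cox7b (1.99, against 2.56 to 2.76). At 10 days, replicate 4 was high for Sdhaf1 (0.31, against -0.14 to -0.06) and low for Cox6a2 (-1.74, against -0.99 to -0.74). Replicate 5 was high for Atp5e (3.22, against 2.96 to 3.02).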

How the results depend on the processing

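Under 27 alternatives no gene of the set passed the test in any comparison, and the smallest adjusted p of any was 0.481. The counts at an unadjusted p under 0.05 in limma were 0 of 93 in each comparison. When slide was a block they became 4 at 48 h, 1 at 10 days and 3 between the times. The shares of all features were then 3.2%, 3.97% and 3.55%. With the mean over all probes of a gene the counts became 0, 5 and 3 of 93, against 2.79%, 3.59% and 3.59% of all features. They reached at most 5 in any alternative. Of 3078 alternative values of the 38 named and tested genes, 265 had the opposite sign. The count of genes above vehicle at 48 h (74 of 93) was 40 within slide 1 and 34 to 81 with 1 array left out. At 10 days (23 of 93) it was 59 when slide was a block, 14 on slide 1 alone, 81 on slide 2 alone and 14 to 48 with 1 array left out. Between the times (16 of 93) it was 26 in the authors' deposited table, 8 after median centring, 9 within slide 1, 48 within slide 2 and 9 to 33 with 1 array left out. The median log2 fold change at 10 days (-0.05) was -0.20 within slide 1 and 0.15 within slide 2. With 1 array left out the medians ran from -0.02 to 0.07 at 48 h, -0.11 to 0.00 at 10 days and -0.14 to -0.03 between the times. The lowest array count of genes above their own median (6) was 16 in the deposited table and 14 with the mean over all probes of a gene. The alternatives for that count were chosen after seeing the data, and the causes of these moves were not tested. Without the samples sharing an ID number the genes above vehicle were 55 at 48 h and 22 at 10 days. A slide with 1 array of a group leaves that array's own spread unmeasured, so it is assumed to vary like the others. No paired analysis was possible because the labels give no replicate numbers. The ID number shared by 2 titles would join only 1 pair of samples, and the description of vehicle replicate 2 gives another number than its title. Signal over background limited only Cox7b2 and Cox8c.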
